A study of Mus musculus with 8 samples.

Results

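The messenger RNAs of 10 genes for matricellular and related matrix proteins were followed in 4T1 cells kept with acetate or with vehicle. They were the CCN genes Ccn1, Ccn2 and Ccn4 (also called Cyr61, Ctgf and Wisp1), Thbs1, Sparc, Spp1, Tnc, Postn, Fn1 and Tgfbi, and all 10 were found among the 20189 genes of the deposited table. The 10 genes were selected on measured values of the same acetate against vehicle contrast, so their differences in that contrast are given as a description. Of these, 6 were higher and 1 was lower with acetate by the criterion used here, and Ccn1, Ccn2 and Tgfbi did not reach it.

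Matricellular proteins are secreted into the space around cells, where they bind the fibrous matrix, growth factors and cell surface receptors, chiefly integrins, and alter adhesion and signalling more than they bear load. Many are low in resting adult tissue and appear in development, wound repair and tumours. Among the usual regulators of their genes, the coactivators YAP and TAZ act through TEAD factors on Ccn1 and Ccn2, transforming growth factor beta (TGF-beta) acts through SMAD proteins on many matrix genes, and Wnt signalling acts on Ccn4.

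4T1 is a mouse mammary carcinoma line, labelled as wild type, that metastasises when placed in mice, and the study asked how a greater supply of acetyl-CoA favours that spread. All cultures were in DMEM with 10% serum, and cells received either water (vehicle) or 5 mM acetate for 48 hours. There were 4 vehicle and 4 acetate libraries of poly-A RNA from cultured cells of this 1 line. Libraries with the same number carry the same experiment code in their labels and were treated as pairs 1 to 4. A value is the number of reads on a gene per 20000000 reads of the library and is called a normalised read count. It was worth 0.6825 to 1.0053 units per read, so that values can be read as close to reads, and the recovered totals were 19.9 to 29.3 M reads per library (M, mega). In a culture, a change in how many cells make a transcript and a change in its amount per cell cannot be told apart.

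The labelled cell type was checked first. All 6 epithelial markers were present, with a summed level of 56726 to 75159 normalised reads in vehicle and 61365 to 76026 in acetate. Of 4 endothelial markers in the table, the sum did not exceed 8.19 in vehicle and 10.5 in acetate. Of 6 macrophage markers, 4 were in the table and summed to 215 to 350 in vehicle and 249 to 450 in acetate, mostly Cd14, while the leukocyte marker Ptprc and the macrophage marker Lyz2 did not exceed 3.02 and 2.16 normalised reads in any library. Of 8 fibroblast markers, 5 were in the table and summed to 234 to 1527 in vehicle and 399 to 2006 in acetate, almost all of it Pdgfra, whereas Col1a2 did not exceed 3.82 and Dcn did not exceed 14.5. Pdgfra and Pdgfrb passed the test as higher with acetate, with log2 changes of 0.52 ± 0.06 and 1.40 ± 0.29 (SE, n = 4 pairs; limma adjusted p = 3.72e-04 and 0.0119), as did Csf1r, at 1.08 ± 0.20 (limma adjusted p = 0.00774), and the epithelial genes Cdh1 and Krt19. In the alternative fits that kept the pairing, Pdgfrb lost its call with a pseudocount of 0.1, DESeq2, edgeR on 7 libraries and without pair 2 or 3. Csf1r lost its call without pair 4, and Cdh1 without pair 2 or 3. The part of these markers in the results was not tested.

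Changes were judged by a limma fit to log2(value + 1) over all genes with the pair number as a block, Benjamini-Hochberg adjustment and a threshold of 0.05. By it 1744 of 20189 genes (8.64%) differed, 1209 higher (5.99%) and 535 lower (2.65%) with acetate. Of the 10 genes, 7 (70.0%) were past this threshold. That share was not read against the background, because the same contrast chose the genes. All 10 had a mean of at least 10 normalised reads, and among such genes 12.9% were past the threshold. The median log2 change over the 10 was 0.39, beside 0.02 over all genes. The split over all genes moved with the scaling and the tool, to 1000 up and 821 down after median-of-ratios scaling, 1314 and 1086 with edgeR and 653 and 473 with DESeq2. It fell to 617, 409 and 539 genes in all without pair 2, 3 or 4.

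Everything called here rests on the pairing. Without the block, limma called 0 of 20189 genes (0.0%), of which 353 had an unadjusted p under 0.05, and none of the 10 genes. With the block, edgeR called 2400 genes and DESeq2 1126. Ccn4 and Postn were the members with an unadjusted p under 0.05 in the fit without the block. They were also the members whose vehicle and acetate values did not overlap at all, 2 of 10, against 1.65% of all genes. Of the 10 genes, 7 went the same way in all 4 pairs, against 28.1% of all genes.

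**Figure D1:**
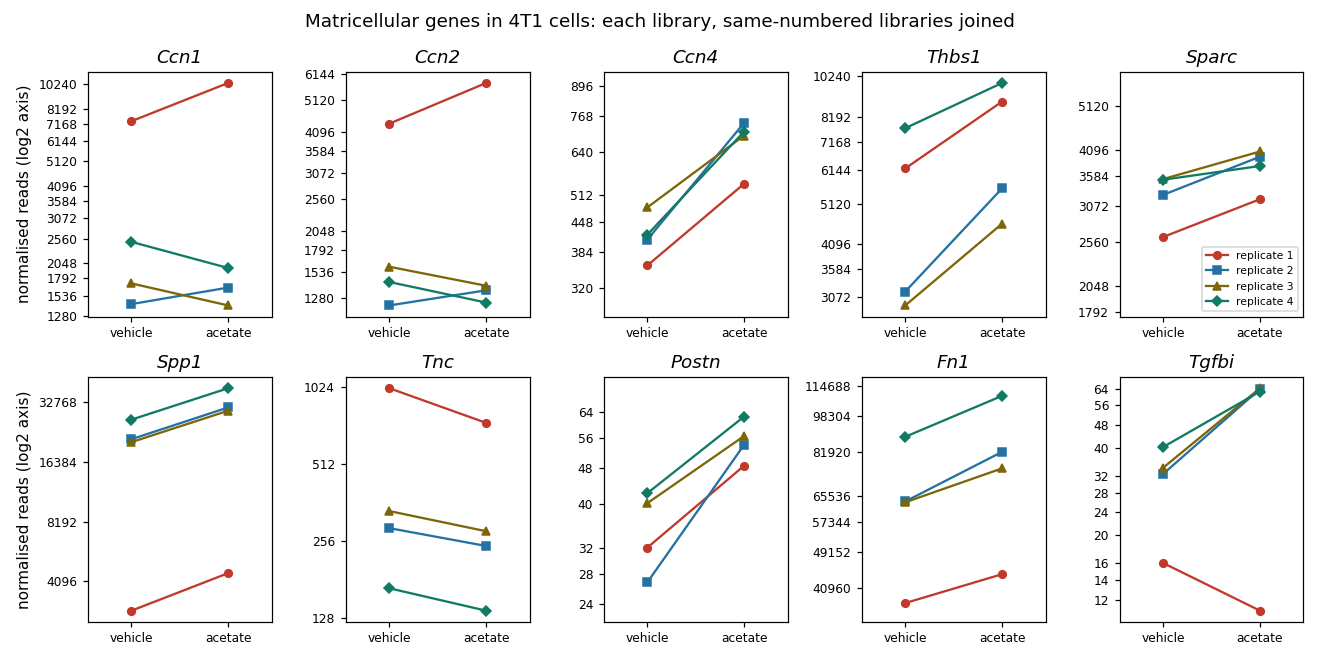
Normalised read counts (log2 axis, scale set per gene) of the 10 genes in each of the 8 libraries, with the vehicle and acetate library of each replicate number joined by a line. The lines of Ccn4, Thbs1, Sparc, Spp1, Postn and Fn1 rise in all 4 pairs and those of Tnc fall, while replicate 1 stands above the rest for Ccn1, Ccn2 and Tnc and below it for Sparc, Spp1, Fn1 and Tgfbi.

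The CCN genes parted ways. Ccn4, a Wnt-induced member of the family that binds integrins and proteoglycans, was at 358.1, 408.6, 481.5 and 419.0 normalised reads in vehicle replicates 1 to 4. In acetate replicates 1 to 4 it was at 543.1, 740.7, 694.6 and 708.7. Every acetate library lay above every vehicle library. The group means were 417 ± 50.7 and 672 ± 87.9 (SD, n = 4), and Ccn4 rose by 0.69 ± 0.06 on the log2 scale (SE, n = 4 pairs), a 1.61-fold change, with pair differences of 0.60, 0.86, 0.53 and 0.76.

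Ccn1, an immediate early gene whose product binds integrins and supports adhesion and vessel growth, behaved otherwise. It was at 7344, 1422, 1712 and 2486 normalised reads in vehicle replicates 1 to 4 and at 10348, 1649, 1405 and 1966 in acetate replicates 1 to 4. It was higher with acetate in pairs 1 and 2, by 0.50 and 0.21, and lower in pairs 3 and 4, by -0.28 and -0.34 on the log2 scale. The fitted log2 change was 0.02 ± 0.11 (SE, n = 4 pairs), and its sign turned when pair 1 (-0.14) or pair 2 (-0.04) was left out.

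Ccn2, also known as connective tissue growth factor and a classical target of TGF-beta and of YAP, followed Ccn1. Its values were 4352, 1215, 1594 and 1432 in vehicle replicates 1 to 4 and 5788, 1351, 1395 and 1240 in acetate replicates 1 to 4. The pair differences were 0.41, 0.15, -0.19 and -0.21, with the same pairs up and down as for Ccn1, and the log2 change was 0.04 ± 0.08 (SE, n = 4 pairs), which became -0.08 without pair 1. Both genes thus varied far more between replicate numbers than between treatments.

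The promoter of Ccn1 is shown because it was the only window among those of these genes with a TEAD core. RefSeq windows of 250 bases before to 50 after a transcript start (build GRCm38.p6, matched by symbol) were found for 6 of the 10 genes, in 9 windows: Ccn1, Tnc, Spp1, Sparc, Postn and Tgfbi. The window of Ccn1 is at chr3:145649936-145650235 on the minus strand and is written 5′ to 3′ with the TEAD core CATTCC, 103 bases before the start, in capitals:

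Ccn1: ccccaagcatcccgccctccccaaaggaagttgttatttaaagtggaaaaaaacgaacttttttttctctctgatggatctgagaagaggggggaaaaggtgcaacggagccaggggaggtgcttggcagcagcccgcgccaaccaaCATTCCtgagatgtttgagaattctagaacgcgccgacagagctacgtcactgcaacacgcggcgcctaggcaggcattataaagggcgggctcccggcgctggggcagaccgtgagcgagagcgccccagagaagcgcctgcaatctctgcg

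The core CATTCC, searched on both strands, was in 14.7% of all 32851 windows. The AP-1 motif TGANTCA, present in 7.81% of windows, and the serum response CArG box, in 1.63%, were in none of the 9 windows. A match describes the sequence only.

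Thbs1 encodes thrombospondin 1, which restrains vessel growth through CD36 and CD47 and can activate latent TGF-beta. Its levels were 6201, 3169, 2938 and 7721 normalised reads in vehicle replicates 1 to 4 and 8923, 5559, 4586 and 9877 in acetate replicates 1 to 4. The groups overlapped, because replicates 1 and 4 were high and 2 and 3 low in both, but the acetate library was the higher in every pair. Thbs1 rose by 0.58 ± 0.06 on the log2 scale (SE, n = 4 pairs), or 1.50-fold, with pair differences from 0.36 in pair 4 to 0.81 in pair 2.

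Spp1 encodes osteopontin, a phosphorylated ligand of integrins and CD44 that tumour cells often secrete. It was at 2918, 21318, 20608 and 26751 normalised reads in vehicle replicates 1 to 4 and at 4509, 30808, 29658 and 38508 in acetate replicates 1 to 4. Replicate 1 was low in both groups, and the mean of its libraries was 7.52-fold below that of the other 6. The step with acetate was nearly the same at either level, at 0.63, 0.53, 0.52 and 0.53 in pairs 1 to 4. Spp1 rose by 0.55 ± 0.03 on the log2 scale (SE, n = 4 pairs), a 1.47-fold change, although the group means of 17899 ± 10357 and 25871 ± 14773 (SD, n = 4) overlap widely.

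Fn1 encodes fibronectin, the adhesive glycoprotein on which integrins assemble fibrils and a usual marker of mesenchymal traits in carcinoma cells. Its normalised reads were 37959, 63728, 63458 and 88622 in vehicle replicates 1 to 4. In acetate replicates 1 to 4 they were 43968, 82039, 75413 and 109160, so that replicate 1 was again the lowest and replicate 4 the highest in both groups. Fn1 rose by 0.28 ± 0.03 on the log2 scale (SE, n = 4 pairs), or 1.22-fold, and the pair differences ran from 0.21 to 0.36.

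Sparc encodes osteonectin, a collagen-binding glycoprotein of basement membranes and bone. It was at 2630, 3260, 3533 and 3521 normalised reads in vehicle replicates 1 to 4 and at 3188, 3959, 4066 and 3776 in acetate replicates 1 to 4. The group ranges overlapped through the low replicate 1. Sparc rose by 0.22 ± 0.03 on the log2 scale (SE, n = 4 pairs), 1.16-fold and the smallest change among the 7 genes past the threshold, with 0.28 in pairs 1 and 2, 0.20 in pair 3 and 0.10 in pair 4. It was not called without pair 3, at 0.22.

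Tnc encodes tenascin C, an oligomeric glycoprotein of the tumour stroma and of healing wounds, and was the gene of this set that fell. Its normalised reads were 1012, 288.1, 335.8 and 167.9 in vehicle replicates 1 to 4. They were 741.6, 245.5, 280.3 and 137.3 in acetate replicates 1 to 4, the lower value in every pair. Tnc fell by 0.31 ± 0.06 on the log2 scale (SE, n = 4 pairs), to 0.809-fold of vehicle, with pair differences of -0.45, -0.23, -0.26 and -0.29. Its call was lost without pair 3 (-0.32) or pair 4 (-0.31). Replicate 1 was again apart, with a mean 3.62-fold above that of the other 6 libraries.

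The promoter windows of Spp1, Sparc and Tnc are shown because each holds the SMAD box CAGACA, which reads TGTCTG on the other strand. They lie at chr5:104434861-104435160 on the plus strand, chr11:55420031-55420330 on the minus strand and chr4:64046887-64047186 on the minus strand (GRCm38.p6, RefSeq). Capitals mark the box in either orientation:

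Spp1: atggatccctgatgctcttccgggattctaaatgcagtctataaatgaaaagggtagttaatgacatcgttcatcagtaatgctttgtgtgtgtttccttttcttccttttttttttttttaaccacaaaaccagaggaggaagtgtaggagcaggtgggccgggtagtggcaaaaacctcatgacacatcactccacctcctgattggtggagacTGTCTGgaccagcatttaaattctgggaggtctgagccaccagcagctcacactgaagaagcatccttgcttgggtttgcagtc

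Sparc: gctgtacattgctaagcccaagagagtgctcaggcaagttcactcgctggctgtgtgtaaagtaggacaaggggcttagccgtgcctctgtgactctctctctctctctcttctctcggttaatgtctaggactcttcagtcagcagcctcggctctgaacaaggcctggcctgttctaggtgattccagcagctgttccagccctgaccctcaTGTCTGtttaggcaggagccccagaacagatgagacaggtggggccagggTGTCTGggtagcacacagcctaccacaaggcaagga

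Tnc: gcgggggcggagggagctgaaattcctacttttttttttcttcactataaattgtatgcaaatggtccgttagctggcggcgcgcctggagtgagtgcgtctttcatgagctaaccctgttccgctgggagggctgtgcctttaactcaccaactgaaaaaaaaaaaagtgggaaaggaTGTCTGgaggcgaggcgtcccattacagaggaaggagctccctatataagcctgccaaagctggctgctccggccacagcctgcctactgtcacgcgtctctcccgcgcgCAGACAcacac

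The box begins 34 bases before the start in Spp1, 36 before and 14 after it in Sparc, and 71 before and 39 after it in Tnc. A second, overlapping Tnc window holds 1 of these boxes, and the windows of Postn, Tgfbi, Ccn1 and a second start of Spp1 hold none. In all, 21.0% of the 32851 windows held the box, Spp1 and Sparc rose while Tnc fell, and nothing about SMAD binding follows from a match.

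Postn and Tgfbi encode periostin and the TGF-beta induced protein (also called βig-h3), related fasciclin-domain proteins of collagen-rich matrix that bind integrins. Both were scarce. Postn rested on 33 to 87 recovered reads per library and was at 32.06, 26.86, 40.21 and 42.31 normalised reads in vehicle replicates 1 to 4 against 48.66, 54.12, 56.62 and 62.53 in acetate replicates 1 to 4. The groups did not overlap. Postn rose by 0.65 ± 0.15 on the log2 scale (SE, n = 4 pairs), or 1.57-fold, yet it was no longer past the threshold with DESeq2 or when pair 2, 3 or 4 was left out, where the change lay between 0.54 and 0.71.

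Tgfbi was at 16.03, 32.55, 34.18 and 40.27 normalised reads in vehicle replicates 1 to 4 and at 10.99, 63.81, 64.17 and 62.53 in acetate replicates 1 to 4. Pairs 2 to 4 were higher with acetate, by 0.95, 0.89 and 0.62 on the log2 scale, and pair 1 was lower, by -0.51, on 21 and 14 recovered reads. The log2 change over all pairs was 0.49 ± 0.23 (SE, n = 4 pairs) and did not pass the threshold, but it did at 0.82 without pair 1 and at 0.66 in edgeR.

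**Figure D2:**
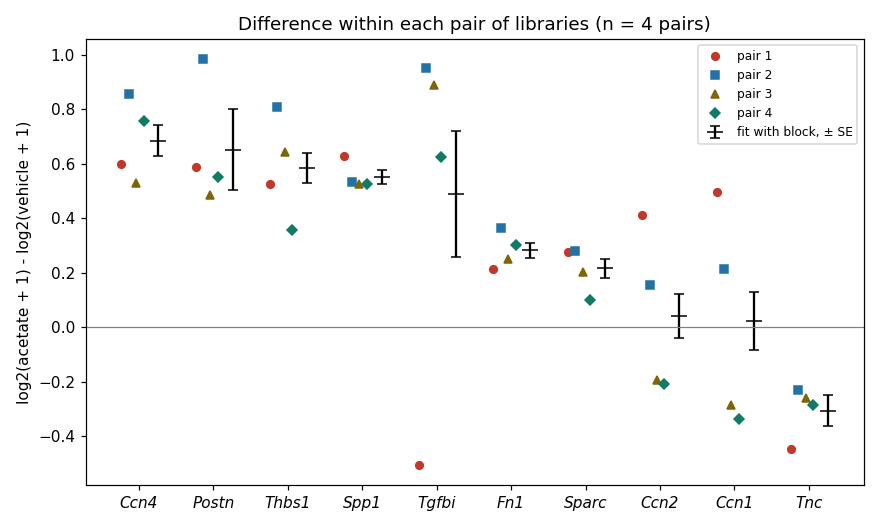
Difference of log2(value + 1) between the acetate and the vehicle library of each pair (coloured points, n = 4 pairs) for the 10 genes, with the limma estimate and its SE in black. The points of Spp1 lie between 0.52 and 0.63, those of Tnc below 0, and those of Ccn1, Ccn2 and Tgfbi on both sides of 0.

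Replicate number accounted for most of the spread in many of these genes. It held 97.2% of the variance of log2 values over the 8 libraries for Ccn1, 97.5% for Ccn2, 97.0% for Tnc, 95.4% for Spp1 and 91.0% for Fn1, beside a median of 90.55% over genes with a mean of at least 10. The shares were lowest for Ccn4 and Postn, with 15.6% and 21.2% for the replicate number and 81.5% and 72.3% for treatment. The median gene had 2.88% for treatment.

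Replicate 1 stood apart in both groups. Both of its libraries were above all 6 others for Ccn1, Ccn2 and Tnc (3 of 10 genes, beside 16.8% of all genes) and below all 6 for Sparc, Spp1, Fn1 and Tgfbi (4 of 10, beside 35.2%). Its mean was 4.99-fold above that of the other libraries for Ccn1 and 3.70-fold for Ccn2, and 1.96-fold and 3.67-fold below it for Fn1 and Tgfbi. Without pair 1, 8 of the 10 genes were past the threshold, Tgfbi being added. Size factors of both replicate 1 libraries were also the lowest, at 0.898 and 0.912 against 1.02 to 1.05 in the others, and their part in these levels was not tested.

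Pearson correlations of log2 values were taken between the genes. Over the 8 libraries, which share 4 experiments and include replicate 1, r was 0.97 for Ccn1 with Ccn2, 0.94 for Spp1 with Fn1 and 0.89 for Ccn4 with Postn. It was -0.99 for Tnc with Fn1 and -0.95 for Tnc with Spp1. These are descriptions over 8 points. The values of Ccn4 and Postn vary mostly with treatment, the contrast on which the genes were selected, and those of the other pairs given vary mostly with replicate number.

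Among 10086 other genes, those with patterns most like Ccn1 were Bub3, Wwc2 and Arl2bp (r = 0.987, 0.985 and 0.983, 8 libraries). For Ccn2 they were Plk2, a stress-responsive kinase, Krt80, a keratin, and Prkci, an atypical protein kinase C (r = 0.995, 0.994 and 0.993). Plk2 was at 3539 and 4219 normalised reads in replicate 1 of vehicle and acetate and between 926.4 and 1062 in the other 6 libraries. Bub3 was at 3900 and 3916 in replicate 1 and between 3019 and 3294 in the other 6, a far smaller step than that of Ccn1. For Ccn4 the genes most alike were Slco5a1, Crip2 and Rem2 (r = 0.990, 0.965 and 0.961). Slco5a1 went from 93.9, 109.1, 121.6 and 105.8 in vehicle replicates 1 to 4 to 122.4, 160.7, 153.8 and 160.3 in acetate. Likeness in 8 libraries that share experiments says nothing of shared control.

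To compare levels between genes, values were divided by the length of their combined exons in kilobases (kb). In vehicle, Spp1 was highest at 10861 ± 6285 normalised reads per kb (SD, n = 4), followed by Fn1 at 5429 ± 1770. Ccn1 (1605 ± 1373), Sparc (854 ± 112), Thbs1 (825 ± 386) and Ccn2 (751 ± 516) followed, and no neighbours in this order up to Ccn2 were apart, their ranges over the 4 libraries overlapping. Ccn4 (74.9 ± 9.11) and Tnc (58.0 ± 49.0) also overlapped each other but lay below Ccn2 in every library. Tgfbi (8.16 ± 2.75) lay below Tnc without overlap, and Postn was lowest at 4.06 ± 0.83, below Tgfbi in 4 of 4 libraries although their ranges overlapped. In replicate 1 the order differed at the top, as Fn1 and Ccn1 per kb exceeded Spp1.

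**Figure D3:**
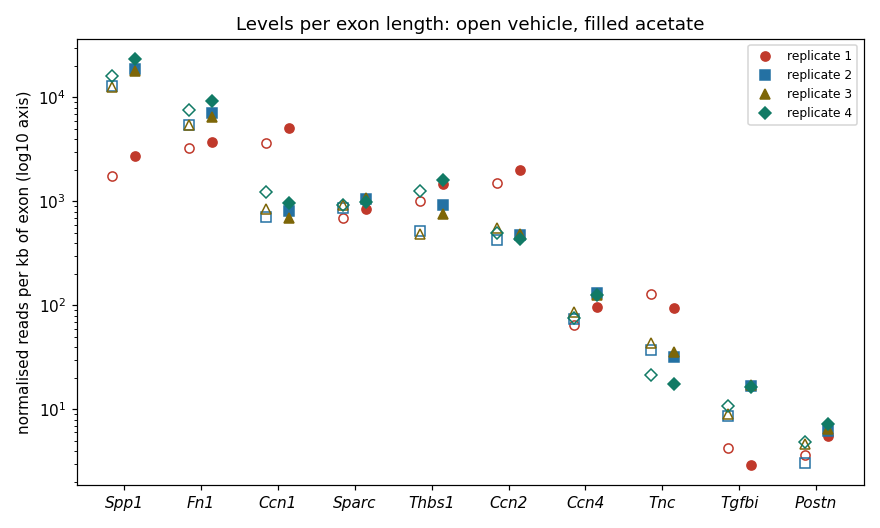
Normalised reads per kb of combined exon (log10 axis) of the 10 genes in each library, open symbols for vehicle and filled for acetate, ordered by the vehicle mean. Spp1 and Fn1 lead except in replicate 1, and Tgfbi and Postn lie lowest, at means of 8.16 and 4.06 in vehicle.

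By position (GRCm38, gene spans of GENCODE M21), no pair of the 10 genes overlapped. Ccn1 and Postn lie on chromosome 3, the former at chr3:145646976-145649981 and the latter at chr3:54361109-54391037. Ccn4 is at chr15:66891320-66923201, Spp1 at chr5:104435118-104441050 and Tnc at chr4:63959785-64047015. The spans of Ccn2, Tnc, Thbs1 and Fn1 each overlap a gene on the opposite strand with a mean between 0.86 and 9.45 normalised reads, and that of Spp1 overlaps Gm42793 on its own strand, at 86.05. The sources do not say if reads were counted by strand, so some may be shared there, though these amounts are small beside Thbs1, Spp1, Fn1 and Ccn2.

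The other matricellular genes and their relatives were read from a list of 32, of which 23 were in the table. Of these, 5 passed as higher with acetate and none as lower (21.7% called, beside 8.64% of all genes). Only 14 of the 23 had a mean of at least 10, and among all such genes 12.9% were called. The median log2 change was 0.31 beside 0.02 over all genes. The 5 gene lists used from here on were written with earlier results of these data known, so their counts and shares are a description. Thbs3, a pentameric thrombospondin, had the largest change among the genes called, 0.84 ± 0.07 (SE, n = 4 pairs, limma adjusted p = 1.71e-04). It went from 210 ± 34.6 to 380 ± 82.7 normalised reads (SD, n = 4) without overlap of the groups. Dmp1, an acidic protein of the same gene family as Spp1, rose by 0.83 ± 0.09 (limma adjusted p = 3.51e-04). Its groups overlapped, at 8.398, 179.9, 174.9 and 534.4 in vehicle replicates 1 to 4 and 14.13, 379.6, 293.5 and 940.1 in acetate. Replicate 1 rested on 11 and 18 recovered reads. Ccn3, the CCN gene also called Nov, rose by 0.45 ± 0.08 (limma adjusted p = 0.00483), and Mfge8, an integrin-binding milk fat globule protein, by 0.31 ± 0.03 (limma adjusted p = 2.35e-04). Ecm1 was the fifth, at 0.17 ± 0.04. The count was 4 with DESeq2 and without pair 2, where Ecm1 was lost, and 3 without pair 3 or pair 4, where Ccn3 (0.43 and 0.46) was lost as well. Lgals1, a galectin and the most abundant of the list, was at 76976 ± 2898 in vehicle and 76124 ± 6629 in acetate (SD, n = 4), a log2 change of -0.02 ± 0.03.

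The receptors of these proteins included 20 measured genes of 22 listed. Of the 20, 7 were past the threshold as higher and 1 as lower (40.0% called, beside the same 8.64% of all genes). A mean of at least 10 was reached by 19 of them, and 12.9% of all such genes were called. The median log2 change was 0.10. The integrin beta chains Itgb8, Itgb6 and Itgb3, partners of the alpha v chain that binds the RGD motif of several of these proteins, rose by 0.73 ± 0.18, 0.65 ± 0.10 and 0.56 ± 0.05 (limma adjusted p = 0.0269, 0.00265 and 1.71e-04). Itgb8 was low, at 21.0 ± 9.12 normalised reads with vehicle against 35.5 ± 15.6 with acetate (SD, n = 4), and lost its call with DESeq2 and without pair 2, 3 or 4. Itga2, the alpha chain of a collagen receptor, fell by 0.31 ± 0.04 (limma adjusted p = 6.88e-04). Itga5, Itgb5, Lrp1 and Sdc1 were the other genes called higher. The count of 8 was 5 with DESeq2 and 4 without pair 2, 3 or 4, and the 4 genes that held in each of these were Itga2, Itgb3, Itgb5 and Itgb6. Itga3, a laminin receptor chain and the most abundant receptor, had a log2 change of -0.08 ± 0.03, which did not pass except in edgeR. Itgb6 in vehicle replicate 1 (187.8 normalised reads) and Itga3 in vehicle replicate 4 (34730) lay far from the other libraries of the group.

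Since Ccn1 and Ccn2 are the usual readouts of YAP and TAZ, 20 other targets were listed, of which 18 were measured. Of these, 2 were called higher and 3 lower (27.8% called, beside 8.64% of all genes). Of the 18, 16 had a mean of at least 10, and 12.9% of all such genes were called. The median log2 change was 0.05. Axl, a receptor tyrosine kinase, fell by 0.21 ± 0.03 (limma adjusted p = 0.00129), and Myof, a membrane repair protein, by 0.16 ± 0.02 (limma adjusted p = 0.00261), with Dock5 the other gene that fell. F3, tissue factor, rose by 0.34 ± 0.07 (limma adjusted p = 0.0139) and Ptpn14, a phosphatase that restrains YAP, by 0.15 ± 0.03 (limma adjusted p = 0.0177). The number called dropped to 3 with DESeq2 and without pair 1, and to 2 without pair 2, 3 or 4. F3 lost its call with DESeq2 and without pair 2, 3 or 4, and Ptpn14 with DESeq2 and without any 1 pair. Both libraries of replicate 1 were above all 6 others for 6 of the 18 (33.3%, beside 16.8% of all genes), among them Ankrd1 and Amotl2, and below them for another 6 (33.3%, beside 35.2%).

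Of 18 genes for TGF-beta ligands, receptors and targets, all measured, 3 were called higher and 1 lower (22.2% called, beside 8.64% of all genes). All 18 had a mean of at least 10, and 12.9% of all such genes were called. The median log2 change was 0.01. The ligand Tgfb3 rose by 0.27 ± 0.04 (limma adjusted p = 0.00201) and the transcription factor Bhlhe40 by 0.14 ± 0.03 (limma adjusted p = 0.0174). Ltbp2, a latent TGF-beta binding protein, fell by 0.17 ± 0.03 (limma adjusted p = 0.00900), and its relative Ltbp3, the most abundant of the list, was at 0.10 ± 0.03 and past the threshold only with the minimum mean of 10 and in edgeR on 7 libraries. The count was 2 without pair 3 or 4, where Ltbp2 and Bhlhe40 lost their calls, Bhlhe40 also with DESeq2, without pair 1 and with edgeR on 7 libraries. Ltbp2 in acetate replicate 1 (2643 normalised reads) lay far from the rest of its group.

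Of 14 Wnt targets listed beside Ccn4, 9 were measured, with 1 called higher and 1 lower (22.2% called, beside 8.64% of all genes). All 9 had a mean of at least 10, and 12.9% of all such genes were called. The median log2 change was 0.13. Tcf7, a transcription factor of the pathway, rose by 0.32 ± 0.05 (limma adjusted p = 0.00453) from 343 ± 20.5 to 428 ± 18.1 normalised reads (SD, n = 4) without overlap. Ccnd1, cyclin D1 and the most abundant of the list, fell by 0.16 ± 0.03 (limma adjusted p = 0.00426). Of these 2 genes, Ccnd1 was not called without pair 2, and neither was called without pair 3. Without the block, 0 genes of each of these 5 lists were past the threshold.

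**Figure D4:**
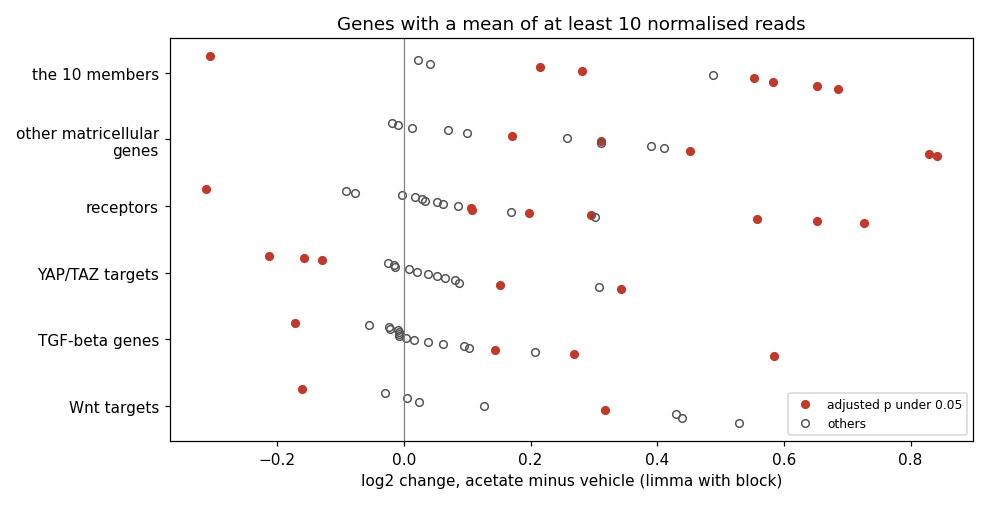
Log2 change (acetate minus vehicle, limma with the pairs as a block) of each gene with a mean of at least 10 normalised reads in the set of 10 and the 5 lists, filled where past the threshold of 0.05. The filled points of the other matricellular genes all lie to the right of 0, from 0.17 to 0.84, whereas those of the YAP/TAZ list lie on both sides, from -0.21 to 0.34.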

How the data were processed

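Messenger RNA of 4T1 cells was sequenced as poly-A selected, stranded libraries, 4 with vehicle and 4 with 5 mM acetate for 48 hours. The labels and the paper's methods state that alignment by the authors was to the GRCm38 (mm10) transcriptome, with gene counting in STAR, and the processing notes also name HTSeq. Versions are not given in the sources used here. The deposited values are a normalised signal that the authors scaled to 20000000 reads per library, for genes above 0 in at least 4 of the 8 libraries. Such a filter can drop genes seen in few libraries, and scaling to the total lets abundant genes move the others.

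All values (100.0%, tolerance 0.05) were whole multiples of 1 read, which returned 19.9 to 29.3 M reads (M, mega) per library. Of 20189 identifiers, 20004 had a symbol in GENCODE M21. No libraries held identical values. The study describes independent experiments, and the spread covers only these libraries.

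Acetate was compared with vehicle in R 4.3.3 with limma 3.58.1, as a two-sided moderated test with an intensity trend (lmFit, eBayes). Values entered as log2(value + 1), the replicate number was a block, and p-values were adjusted over the whole table by Benjamini-Hochberg, with 0.05 as the threshold. That scale understates changes of low genes. The pairing comes from shared experiment codes in the labels. Deviations from the group means of same-numbered libraries correlated at 0.938, 0.662, 0.539 and 0.913 across genes with a mean of at least 10, and those of differently numbered libraries at -0.84 to 0.515. Such deviations cancel out within a group, which by itself lowers the values between different numbers. Pair 3, at 0.539, was hardly set apart from vehicle replicate 2 with acetate replicate 3, at 0.515. The fit was tested on simulated data. Members and lists were chosen with earlier results of these data known. The named genes are the members, the most abundant gene of each list with up to 4 called genes of largest change (mean at least 10), and the 3 genes most correlated with each CCN gene. One gene that this rule picked is not reported here, and counts over lists include it. Ecm1, Dock5, the other called receptors, Ankrd1, Amotl2 and the markers with values were named after their values were seen. Alternatives were no block, pseudocounts of 0.1 and 5, a minimum mean of 10, median-of-ratios scaling, edgeR 4.0.16 (quasi-likelihood, TMM) and DESeq2 1.42.0 on the recovered reads, each pair left out, and, chosen after seeing the data, edgeR on 7 libraries without vehicle replicate 3, whose unit per read (1.0053) is hard to tell from rounding.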

Additional observations from a re-analysis of the deposited data

Results flagged for a closer look

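In 60 group values (30 named genes in the vehicle and acetate groups of 4 libraries), 7 had 1 library far from the other 3 by Dixon's criterion (its gap to the nearest library divided by the whole range). Chance flags about 1 in 20 groups, or 3 here, and 6 of the 7 were in replicate 1, so they are not independent of each other.

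Among the members, Ccn1 in acetate replicate 1 was the highest of its group, at 10350 normalised reads against 1405 to 1966, a gap of 0.937 of the range. Ccn2 was highest in replicate 1 of both groups, at 4352 against 1215 to 1594 in vehicle (0.879) and at 5788 against 1240 to 1395 in acetate (0.966). Tgfbi in acetate replicate 1 was the lowest, at 10.99 against 62.53 to 64.17 (0.969).

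Of the named genes of the lists, Itgb6 in vehicle replicate 1 was high, at 187.8 normalised reads against 74.39 to 89.4 (0.868). Ltbp2 in acetate replicate 1 was low, at 2643 against 4225 to 4550 (0.829). The exception to replicate 1 was Itga3, low in vehicle replicate 4 at 34730 against 46400 to 47410 (0.92).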

How the results depend on the processing

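The count of genes past the threshold, 1744 with the replicate block, was 0 without the replicate block and 1126 with DESeq2. It ranged from 409 to 1662 when 1 pair was left out, lowest without pair 3 (without pair 2 it was 617 and without pair 4 539), and was 1350 with edgeR on 7 libraries and 2400 on all 8. The genes called lower, 535 in the main fit, were 821 with median-of-ratios scaling and 1086 with edgeR. The 7 members past the threshold became 0 without the replicate block and 4 to 8 when a pair was left out, fewest without pair 3, where Sparc (0.22), Postn (0.71) and Tnc (-0.32) lost their call. Tnc (-0.31) and Postn (0.69) also lost it without pair 4, and Postn without pair 2 (0.54). With other pseudocounts, the minimum mean of 10 or median-of-ratios scaling, 7 members were called, with DESeq2 6 and with edgeR 8 (7 on 7 libraries). The members' median log2 change of 0.385 ranged from 0.294, without pair 2, to 0.416. Signs turned for genes that were not called: leaving out 1 pair moved Ccn1 from -0.136 (pair 1) through -0.043 (pair 2) to 0.141 (pair 4), Ccn2 from -0.082 (pair 1) to 0.124 (pair 4) and Lgals1 from -0.049 (pair 3) to 0.018 (pair 4). Over the alternatives, 101 values of the members kept their direction and side of the threshold, 14 lost their call, 2 gained one and 3 changed sign. For the named genes of the lists these numbers were 194, 42, 3 and 1. The causes were not tested. Postn and Tgfbi rested on few reads, 14 to 87 per library, and the part of this in their values was not tested.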
